A study of Arabidopsis thaliana with 12 samples.

Results

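The xyloglucan endotransglucosylase/hydrolase (XTH) family of Arabidopsis thaliana holds the enzymes that remodel xyloglucan, the main hemicellulose of the primary cell wall in flowering plants such as this one. Its members were taken as the 33 genes XTH1 to XTH33, by their locus codes, and all 33 were found among the 36917 genes of the count table. Xyloglucan chains coat and link cellulose microfibrils. Endotransglucosylases cut a xyloglucan chain and join the new end to another chain, which lets a wall loosen or be reinforced while a cell grows, whereas endohydrolases cut it without rejoining. By sequence, 26 members form subfamily I/II and 5 form subfamily IIIB, which are mostly endotransglucosylases, and 2, XTH31 and XTH32, form subfamily IIIA, which holds the known endohydrolases.

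RNA was sequenced from 4 groups of 3 libraries. Pistils and young siliques of stages 12 to 16 came from the Landsberg erecta ecotype (Ler), either wild type or carrying the ful-1 allele. Dissected inflorescence meristems, bearing flower buds up to stages 3 to 4, came from the Columbia ecotype (Col-0), either wild type or carrying ful-7, the insertion allele SALK_033647. Each sample pooled about 20 organs, and the plants received no treatment. FRUITFULL (FUL, AT5G60910), the gene mutated in both alleles, encodes a MADS-box regulator that is needed for the valves of the fruit to expand and that also acts in the shoot apex. Each tissue was profiled with 1 mutant allele in 1 ecotype, so an effect of FUL loss cannot be told apart from other differences between a mutant line and its wild type.

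Library totals ran from 13191949 to 83606724 counts. Levels are given in CPM, read counts brought to a common library size over the 12 libraries. FUL stood at 96.1 to 107 CPM in Ler pistils, at 8.87, 9.76 and 2.57 CPM in ful-1 pistils, at 95.3 to 153 CPM in Col-0 meristems and at 1.71 to 3.29 CPM in ful-7 meristems. Its log2 fold change was -5.56 ± 0.29 (SE) in meristems (adjusted p = 0.00036, edgeR). In pistils it was -3.84 ± 0.47 (SE, adjusted p = 0.063, edgeR) over 6 libraries. Library 3 of ful-1 pistils, the smallest, was unlike the remaining 5 pistil libraries. Across genes its counts followed theirs at Spearman's rho of 0.91 to 0.916, against up to 0.986 among those 5, plastid genes took 2.04% of its counts, and it had 26.8% of them in its 50 most abundant genes. The pistil comparison is therefore given with all 6 libraries and without that library, where the FUL log2 fold change was -3.50 ± 0.11 (SE, adjusted p = 0.00015, edgeR). Summed marker genes differed between the tissues in the direction of the labels. Over 7 genes each, meristem markers lay at 260.4 to 386 CPM in meristems and 51.3 to 82.5 CPM in pistils, and carpel and ovule markers at 321 to 786 CPM in pistils and 47.7 to 63.6 CPM in meristems. Of the latter 7, CRC and SPT, which act early in carpel development, did not follow the sum, with log2 differences of -1.31 ± 0.52 and -0.22 ± 0.13 (SE) between Ler pistils and Col-0 meristems that did not pass edgeR's test. In such bulk samples, fewer cells of a type and less RNA per cell cannot be told apart.

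The catalytic site was searched for with a fixed codon pattern of 27 bases. That pattern required both catalytic glutamates, so what the matches share there was set by the search. It matched in 32 of the 33 members, in 32 different spellings. XTH11 (AT3G48580) had no match, which does not show that it lacks a catalytic site. The matched stretch is printed here for the members on which the results turn, 5′ to 3′ on the coding strand, from RefSeq's TAIR10.1 assembly, with the codons of both catalytic glutamates in capitals.
XTH31 (AT3G44990, chr3:16447882-16447908, reverse strand): gatGAGgtcgatatcGAGtttctaggg
XTH32 (AT2G36870, chr2:15474073-15474099, reverse strand): gatGAGgtagacataGAAtttttgggg
XTH27 (AT2G01850, chr2:385891-385917, forward strand): gatGAGatagattttGAGtttcttggt
XTH28 (AT1G14720, chr1:5067931-5067957, reverse strand): gacGAGattgattttGAGtttttgggg
XTH1 (AT4G13080, chr4:7627652-7627678, reverse strand): gatGAAgttgattttGAAttcttggga
XTH2 (AT4G13090, chr4:7632183-7632209, reverse strand): gatGAGgttgactttGAGttcttgggg
XTH5 (AT5G13870, chr5:4475714-4475740, reverse strand): gatGAGatagactttGAGtttctaggg
XTH6 (AT5G65730, chr5:26299616-26299642, forward strand): gacGAGctagattttGAGttcttggga
XTH8 (AT1G11545, chr1:3879651-3879677, reverse strand): gacGAGatagatttcGAAtttctaggg
XTH15 (AT4G14130, chr4:8137782-8137808, reverse strand): gacGAGatagactttGAGtttctaggt
XTH24 (AT4G30270, chr4:14820042-14820068, reverse strand): gatGAGattgattttGAGttcttgggt
XTH9 (AT4G03210, chr4:1416538-1416564, forward strand): aacGAAttcgattttGAGttcttaggg
XTH9 differs from the other 11 shown in its first codon, aac in place of gat or gac. The fifth codon, between the capitals, was one for isoleucine (ata or atc) in 5 members, XTH29 to XTH33, and one for phenylalanine (ttt or ttc) in the other 27 with a site. Thus XTH27 and XTH28 shared that codon class with subfamily I/II, and the endohydrolases XTH31 and XTH32 shared theirs with XTH29, XTH30 and XTH33. Across aligned coding sequences, identity between pairs of members had a median of 51.9% over 528 pairs and ran from 42.2% to 92.2%. No blastn alignment of at least 100 bases between a member and another locus reached 95% identity over its length, apart from that of XTH15, which overlaps a gene on the other strand. Closer stretches within an alignment were not searched for.

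Family expression was dominated by XTH9, a member known from shoot apices and growing stems, in both tissues. The 33 members summed to 1078 ± 99.7 CPM in Ler pistils, 1039 ± 100.5 CPM in ful-1 pistils, 1057 ± 94.1 CPM in Col-0 meristems, and in ful-7 meristems the sum was 1206 ± 190.3 CPM (SD, n = 3 each), so the ranges of the 4 groups overlapped. XTH9 stood at 666, 654 and 515 CPM in Ler pistils, 484, 490.1 and 650.2 CPM in ful-1 pistils, 623, 503 and 555 CPM in Col-0 meristems and 653, 794 and 559.8 CPM in ful-7 meristems. It made up 48.6% to 61.9% of the family's summed level in each of the 12 libraries, and its log2 fold changes did not pass edgeR's test in any of the comparisons below. Divided by exonic length, XTH9 came first in each group, at 401 ± 55.1, 355 ± 61.8, 367 ± 39.7 and 438 ± 77.2 CPM per kb (SD, n = 3), in the order of groups above.

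The members behind XTH9 differed between the tissues. In Col-0 meristems XTH4 (AT2G06850), a member known from stems and wood formation, followed at 109.9 ± 17.6 CPM per kb, then XTH6 at 67.1 ± 11.3, XTH28 at 47.8 ± 12 and XTH32 at 26 ± 1.42 CPM per kb (SD, n = 3). The libraries of XTH6 and XTH28 overlapped per length, as did those of XTH32 and the next member, XTH16 (AT3G23730). In Ler pistils XTH24 and XTH4 followed at 55.5 ± 17.3 and 55.4 ± 7.83 CPM per kb with overlapping libraries, then XTH6 at 44.4 ± 5.11 and XTH28 at 27.1 ± 0.568 CPM per kb (SD, n = 3). XTH24, also called MERI5, stood at rank 12 in Col-0 meristems at 1.25 ± 0.291 CPM per kb. In ful-1 pistils XTH28 stood at rank 2 with 64.7 ± 34.6 CPM per kb and XTH6 at rank 10 with 13.2 ± 4.82 CPM per kb (SD, n = 3). The 8 members from XTH28 to XTH16 in that order overlapped each with the next. Library 3 set the rank of XTH28: over libraries 1 and 2 alone XTH24 came second at 55 CPM per kb, followed by XTH28 at 44.8 and XTH15 at 44.6 CPM per kb.

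**Figure D1:**
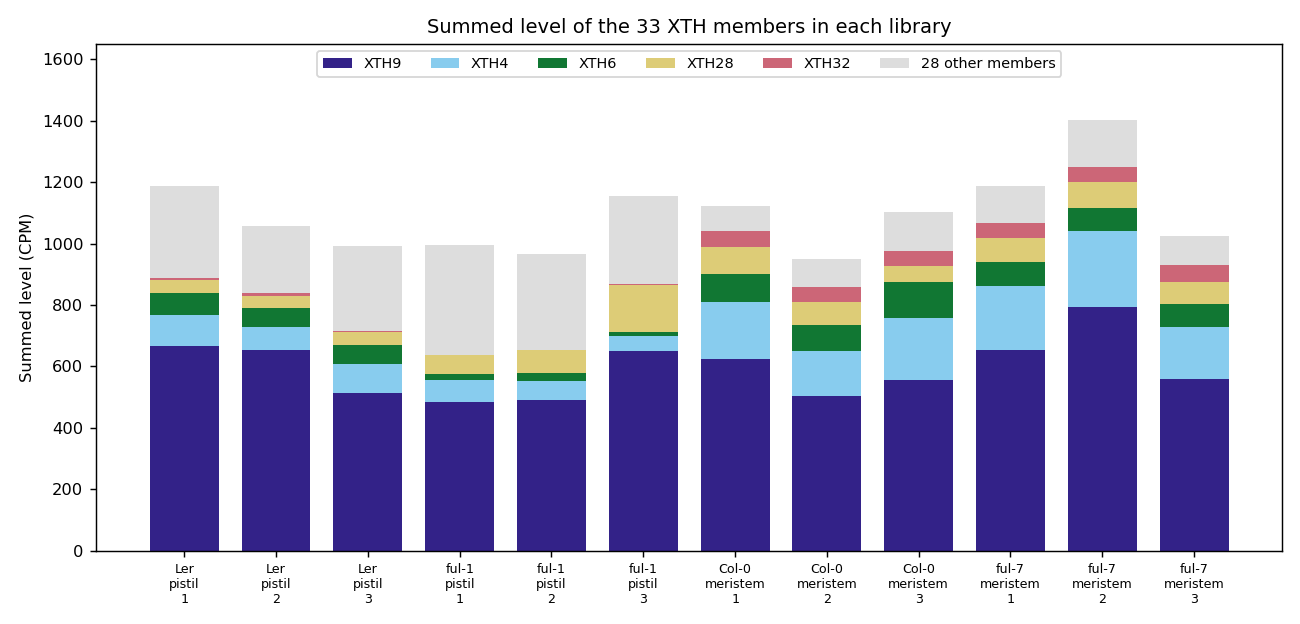
Summed level of the 33 XTH members in each library (y axis, CPM), stacked by member, with 12 libraries in 4 groups along the x axis. XTH9 fills 48.6% to 61.9% of each bar, and XTH32 fills 3.49% to 5.43% of the meristem bars but at most 0.942% of the pistil bars.

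Not all members were detected at a useful depth. A mean of at least 1 CPM was reached by 23 of 33 members in Ler pistils, 22 in ful-1 pistils and 12 in each meristem group. The 7 members XTH12, XTH13, XTH14, XTH17, XTH20, XTH21 and XTH26 lay at or under 0.309 CPM in every library. The 4 root hair markers together stayed at or under 0.268 CPM. XTH14 (AT4G25820) had 0 counts in each library but 1, ful-1 pistil library 1, with 4 counts. XTH3 (AT3G25050), a member reported to act on cellulose as well, was highest in Col-0 meristem library 3 at 0.391 CPM and lay at 0 to 0.0876 CPM in the other 11 libraries.

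**Figure D2:**
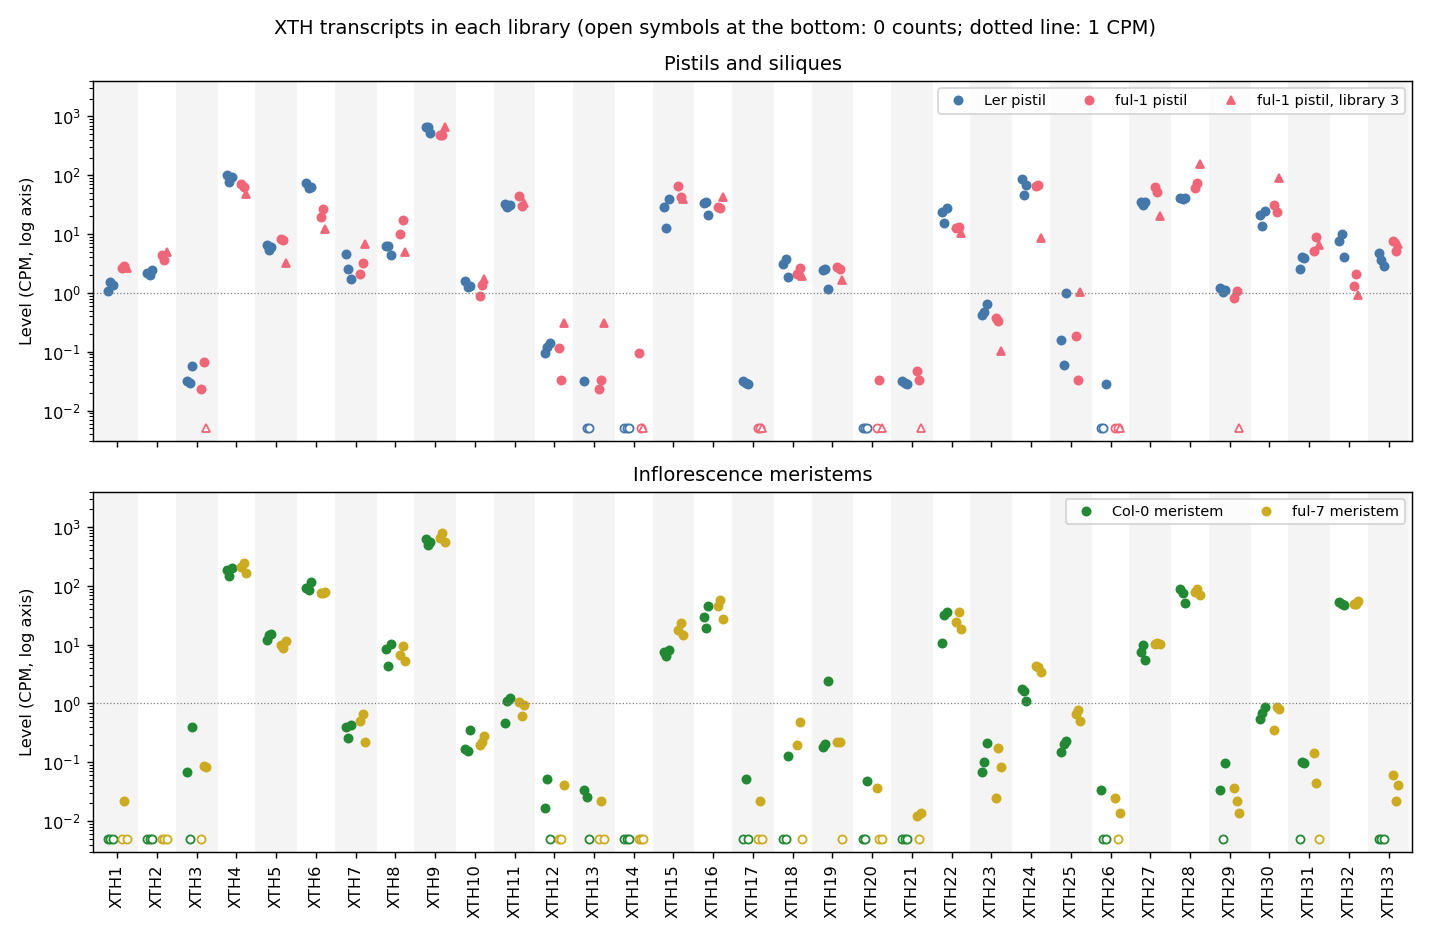
Level of each of the 33 members in each library (y axis, CPM on a log axis), with pistils in the upper panel and meristems in the lower one. Points are single libraries, triangles mark ful-1 pistil library 3, and open symbols at the bottom stand for 0 counts; 11 members lie above the 1 CPM line in the Ler mean but below it in the Col-0 mean.

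The wild types of both tissues differed in most members, as they did in most of all genes tested. This comparison sets Ler pistils beside Col-0 meristems, and tissue and ecotype cannot be told apart in it. Of 24 members tested, 14 were higher in pistils, 5 were lower and 5 did not pass edgeR's test. The shares among all 24009 genes tested were 31.8% higher and 29.1% lower, 60.9% in either direction, and the median log2 fold change was 2.07 over the tested members and 0.01 over all tested genes. The filter on low counts bears on this, since 11 members reached 1 CPM in Ler pistils only, and 10 of those were among the 14. Of the 11, the 6 members XTH1, XTH2, XTH18, XTH29, XTH31 and XTH33 were too low to be tested in meristems alone, so they entered this comparison through their pistil counts and a difference was built in. That holds for XTH23 as well, whereas XTH7, XTH10, XTH11, XTH19 and XTH30 were also tested in meristems alone. Of the 17 members of this comparison that were also tested in meristems alone, 7 were higher and 5 lower in pistils. Among the 12 members with at least 1 CPM in both wild types, 3 were higher in pistils (XTH15, XTH24 and XTH27) and 5 were lower (XTH4, XTH5, XTH6, XTH28 and XTH32). The counts of XTH15 may include reads of an overlapping gene, as described below.

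XTH32, the endohydrolase member, stood at 52.9, 49 and 47.7 CPM in Col-0 meristems and at 7.6, 9.95 and 4.06 CPM in Ler pistils. Its lowest meristem library thus lay well above its highest pistil library, with a log2 difference of -2.78 ± 0.29 (SE, adjusted p = 0.00018, edgeR). The other IIIA member, XTH31, went the other way, from 0, 0.103 and 0.0978 CPM in Col-0 meristems to 2.51, 4.1 and 3.95 CPM in Ler pistils. Its log2 difference was 5.74 ± 0.65 (SE, adjusted p = 0.00026, edgeR), on 10 counts in meristems. XTH31 entered this test through its pistil counts, so a difference was built in and that p is no evidence for its direction. The levels of the 2 members of subfamily IIIA thus lay in opposite directions between the tissues, but only XTH32 was also tested in meristems alone.

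In subfamily IIIB, XTH27 and XTH30 were higher in pistils and XTH28 was lower. XTH29 and XTH33 entered the test through their pistil counts, so for them a difference was built in. The p given below for XTH29 is thus no evidence for its direction. XTH27, known from the differentiation of water-conducting cells in leaf veins, lay at 34.5, 31.8 and 34.6 CPM in Ler pistils and 7.51, 9.68 and 5.59 CPM in Col-0 meristems, a log2 difference of 2.17 ± 0.19 (SE, adjusted p = 8.1e-05, edgeR). XTH30 (AT1G32170) was higher in pistils by 4.83 ± 0.30 (SE, adjusted p = 2.1e-05) and XTH29 (AT4G18990), at 8 counts in meristems, by 4.45 ± 0.61 (SE, adjusted p = 0.00064) on edgeR's log2 scale. XTH33 (AT1G10550), which is predicted to be anchored in the plasma membrane, had 374 counts in Ler pistils and 0 in Col-0 meristems, which makes it at least 202-fold higher in pistils when the 0 is replaced by 3 counts for the group. XTH28, known from stamen filament growth, lay lower in pistils, at 40.3, 39.6 and 41.3 CPM against 87.3, 74.4 and 52 CPM in meristems. Its log2 difference of -0.80 ± 0.17 (SE, adjusted p = 0.0057, edgeR) had an adjusted p of 0.062 in a fit of all 12 libraries.

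In subfamily I/II the neighbouring genes XTH1 and XTH2, which lie within 10000 bases of each other on chromosome 4 and share 76.7% of their coding bases, were pistil members. XTH1 had 132 counts in Ler pistils and XTH2 had 220, and both had 0 in Col-0 meristems. That made them at least 71.3-fold and at least 119-fold higher in pistils with the same replacement. XTH24 showed 87.1, 45.4 and 68.9 CPM in Ler pistils against 1.77, 1.66 and 1.11 CPM in Col-0 meristems, a log2 difference of 5.50 ± 0.31 (SE, adjusted p = 1.4e-05, edgeR). XTH11, the member without a match to the codon pattern, lay at 32.9, 28.8 and 31.1 CPM in Ler pistils and 0.471, 1.11 and 1.22 CPM in Col-0 meristems, a log2 difference of 5.07 ± 0.32 (SE, adjusted p = 2.1e-05, edgeR). The libraries of neither gene overlapped between the tissues. XTH7, XTH10, XTH15, XTH18 and XTH23 were higher in pistils as well, with log2 differences of 1.88 (XTH15) to 5.83 (XTH18) and edgeR adjusted p of 0.00086 to 0.01. Like XTH1 and XTH2, XTH18 and XTH23 entered the test through their pistil counts, so for them a difference was built in. XTH4, XTH5 and XTH6 were lower in pistils, by -0.97 ± 0.16, -1.19 ± 0.15 and -0.58 ± 0.15 (log2, SE), with edgeR adjusted p of 0.0015, 0.00039 and 0.012. For XTH6 this became 0.073 in a fit of all 12 libraries. XTH9 with 0.14 ± 0.14, the touch-induced XTH22 (TCH4, AT5G57560) with -0.22 ± 0.44, XTH16 with -0.08 ± 0.33, XTH8 with -0.43 ± 0.32 and XTH19 with 1.13 ± 0.93 (log2, SE) did not pass. Mature pollen markers summed to 376 to 1186 CPM in Ler pistils and 6.47 to 24 CPM in Col-0 meristems over 4 genes, and their part in these differences was not tested.

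In pistils the comparison of ful-1 with Ler asks which members depend on FUL in the growing fruit. With all 6 libraries, 0 of 24 tested members passed edgeR's test, where 0.186% of all 23674 tested genes did, 0.0845% higher and 0.101% lower in ful-1. At an unadjusted p under 0.05 there were 9 members, DESeq2 called 4 (XTH1, XTH2, XTH6 and XTH32), and the median log2 fold change was 0.20 over the members and 0.01 over all genes. Without ful-1 library 3, 7 of 24 members passed, 5 higher (XTH1, XTH2, XTH8, XTH27 and XTH28) and 2 lower (XTH6 and XTH32). In that fit 13.4% of all 24068 genes passed, 5.12% higher and 8.26% lower, and the medians were 0.08 over the members and 0.01 over all genes. The 9 members not tested in either fit were XTH3, XTH12, XTH13, XTH14, XTH17, XTH20, XTH21, XTH25 and XTH26. These 5 libraries leave 2 for ful-1, so the values that follow rest on few samples.

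XTH6 was the member with the lowest p in ful-1 pistils. It stood at 73.8, 59.6 and 62.4 CPM in Ler and at 19.9, 26.3 and 12.2 CPM in ful-1. All 3 ful-1 libraries, library 3 included, lay below all 3 Ler libraries. The log2 fold change was -1.54 ± 0.16 (SE, adjusted p = 0.0041, edgeR) without library 3 and -1.73 ± 0.28 (SE, adjusted p = 0.130, edgeR) with it. XTH32 stood at 7.6, 9.95 and 4.06 CPM in Ler and at 1.29, 2.1 and 0.927 CPM in ful-1, again without overlap. Its log2 fold change was -2.14 ± 0.45 (SE, adjusted p = 0.033, edgeR) without library 3 and -2.28 ± 0.45 (SE, adjusted p = 0.195, edgeR) with it. Both XTH6 and XTH32 passed in the fit of all 12 libraries, with adjusted p of 0.0044 and 0.0056. They were also called by DESeq2 on 6 libraries, with adjusted p of 1.9e-05 and 0.00056. The IIIA partner of XTH32, XTH31, lay higher in ful-1 instead: 2.51, 4.1 and 3.95 CPM in Ler became 5.21, 8.94 and 6.49 CPM in ful-1. Its libraries did not overlap. The log2 fold change of 0.96 ± 0.31 (SE) without library 3 did not pass in edgeR, and DESeq2 on those 5 libraries gave an adjusted p of 0.040.

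Of the members that rose, XTH1 and XTH2 were the low ones. XTH1 lay at 1.06, 1.51 and 1.35 CPM in Ler and at 2.67, 2.92 and 2.68 CPM in ful-1, and XTH2 at 2.16, 1.98 and 2.42 CPM in Ler and 4.48, 3.68 and 4.94 CPM in ful-1. For both genes each ful-1 library, library 3 included, lay above each Ler library. XTH1 rose by 1.05 ± 0.22 (SE, adjusted p = 0.031) and XTH2 by 0.86 ± 0.18 (SE, adjusted p = 0.031) on edgeR's log2 scale without library 3, and with it their values were 1.10 ± 0.28 (SE, adjusted p = 0.298) and 1.03 ± 0.28 (SE, adjusted p = 0.316).

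In the other 3 members that rose, library 3 lay apart from libraries 1 and 2. XTH27 lay at 34.5, 31.8 and 34.6 CPM in Ler and at 63.5 and 51.1 CPM in ful-1 libraries 1 and 2, a log2 fold change of 0.73 ± 0.11 (SE, adjusted p = 0.011, edgeR). Library 3 had 20.4 CPM, below the Ler libraries, and with it the log2 fold change was 0.42 ± 0.36 (SE, adjusted p = 0.641, edgeR). XTH28 lay at 40.3, 39.6 and 41.3 CPM in Ler and at 60.5 and 73.2 CPM in ful-1 libraries 1 and 2. It rose by 0.69 ± 0.10 (SE, adjusted p = 0.012, edgeR) on the log2 scale. Here library 3 was far higher, at 156 CPM, so that all 3 ful-1 libraries lay above all 3 Ler libraries, and with it the log2 fold change was 1.33 ± 0.44 (SE, adjusted p = 0.396, edgeR). XTH8 lay at 6.28, 6.2 and 4.34 CPM in Ler and at 9.9, 17.3 and, in library 3, 5.05 CPM in ful-1. Its log2 fold change was 1.24 ± 0.28 (SE, adjusted p = 0.041, edgeR) without library 3 and 0.95 ± 0.42 (SE, adjusted p = 0.499, edgeR) with it.

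The remaining tested members did not pass in either pistil fit of edgeR. Their log2 fold changes without library 3 ran from -0.81 (XTH22) to 0.96 (XTH15 and XTH31). XTH22 lay at 23.7, 15.3 and 27.8 CPM in Ler and 12.9, 13.1 and 10.4 CPM in ful-1, and XTH4 at 101, 75.8 and 92 CPM in Ler and 70.9, 62.8 and 47.8 CPM in ful-1. In both, every ful-1 library was below every Ler library, and DESeq2 without library 3 gave adjusted p of 0.016 and 0.023. Library 3 set the spread of several others. XTH24 had 8.65 CPM in it against 65.4 and 67.8 CPM in the other ful-1 libraries, and XTH30 had 88.3 CPM against 31.8 and 23.6 CPM. Carpel and ovule markers summed to 321 to 349 CPM in Ler and 545 to 786 CPM in ful-1 pistils over 7 genes, none at 0. Those genes rose unequally. With all 6 libraries IND had a log2 fold change of 3.53 ± 0.23 (SE, adjusted p = 0.010, edgeR). CRC had one of 0.13 ± 0.44 (SE), and the others of the 7 lay between these values. Whether the higher sum reflects more carpel tissue or changes in single genes was not tested. Pollen markers summed to 376 to 1186 CPM in Ler and 396 to 532 CPM in ful-1 pistils over 4 genes. The part of either marker list in the changes of the members was not tested.

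**Figure D3:**
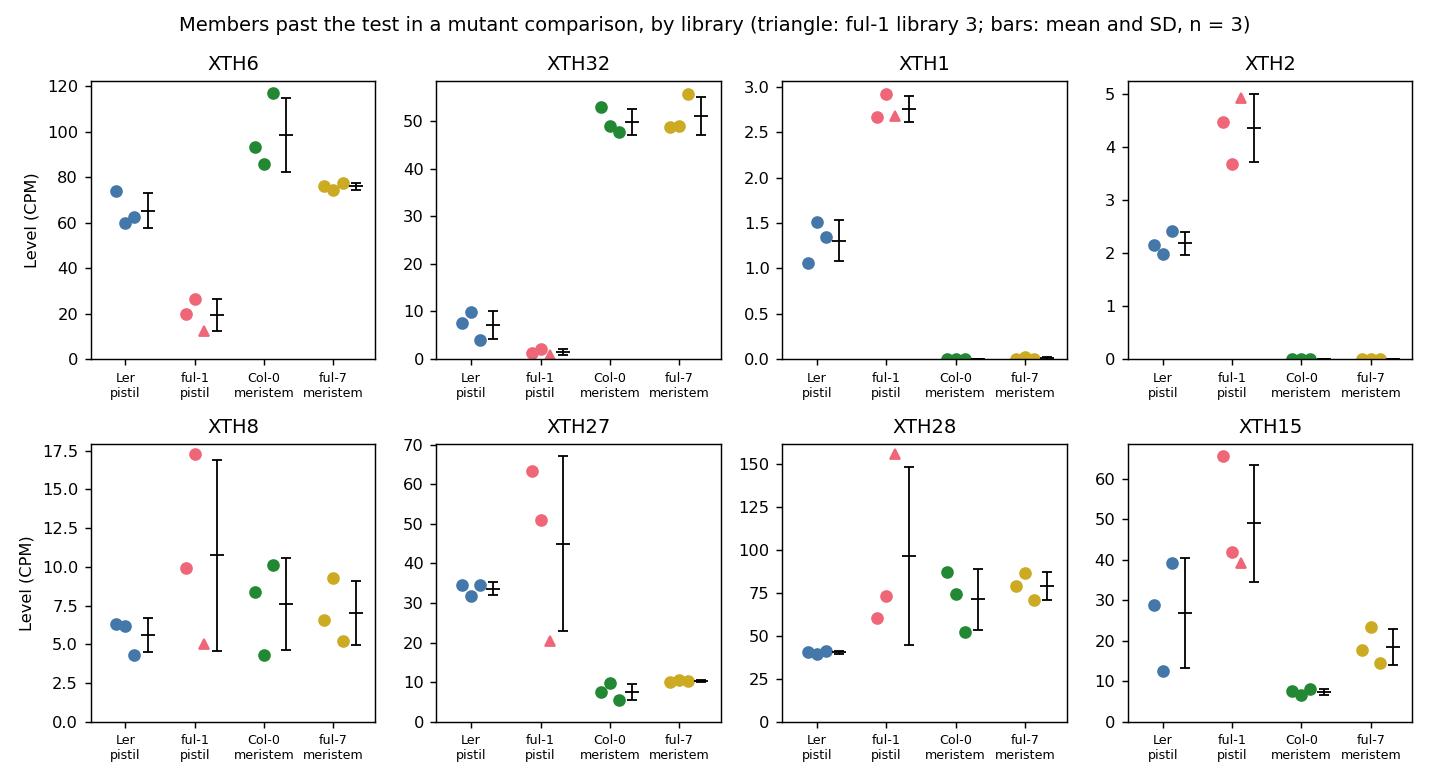
Levels in each library (y axis, CPM) of the 8 members past edgeR's test in a comparison of mutant and wild type, by group. All but XTH15 passed in the pistil fit without ful-1 library 3 and not in that with all pistil libraries. The points and bars include that library. Points are libraries, triangles are ful-1 pistil library 3, and black bars give the mean and SD (n = 3). XTH6 and XTH32 lie lower in all 3 ful-1 pistil libraries than in Ler, and XTH15 lies higher in all 3 ful-7 meristem libraries than in Col-0.

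In meristems the comparison of ful-7 with Col-0 asks the same question in the shoot apex. Of 18 tested members, 1 passed edgeR's test, XTH15, which was higher in ful-7. Among all 22605 genes tested, 0.292% passed, 0.199% higher and 0.0929% lower, and 5 members had an unadjusted p under 0.05. XTH15, a member known to rise in shade in seedlings, stood at 7.6, 6.52 and 7.99 CPM in Col-0 and at 17.6, 23.3 and 14.6 CPM in ful-7. The groups did not overlap, and the log2 fold change was 1.32 ± 0.18 (SE, adjusted p = 0.045, edgeR). The call held without ful-7 library 3 and was lost without any other single library. Over these 6 omissions the log2 fold change ran from 1.12 to 1.47 and the edgeR adjusted p from 0.050, just under the threshold, to 0.227. A fit of all 12 libraries also lost it (adjusted p = 0.47), and DESeq2 kept it (adjusted p = 1.8e-08). In pistils XTH15 lay at 28.9, 12.5 and 39.3 CPM in Ler and 65.7, 42 and 39.2 CPM in ful-1, which overlap.

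The XTH15 counts are uncertain for another reason. Its exons overlap those of AT4G14120, on the opposite strand, over 382 bases, which is 31.6% of the exonic length of XTH15 and 21.7% of that of AT4G14120, and the counting did not separate strands. AT4G14120 lay at 8.67, 6.13 and 7.22 CPM in Col-0 and 13.3, 19.6 and 9.75 CPM in ful-7. It was thus higher in each ful-7 library too, with a log2 fold change of 0.94 ± 0.26 (SE, adjusted p = 0.215, edgeR). Between the wild types AT4G14120 was higher in Ler pistils, with a log2 difference of 0.82 ± 0.20 (SE, adjusted p = 0.010, edgeR). The same limit therefore holds for the XTH15 call in that comparison. How many of the XTH15 counts come from AT4G14120 was not tested.

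XTH24 and XTH25 (AT5G57550) were near the threshold in meristems. XTH24 lay at 1.77, 1.66 and 1.11 CPM in Col-0 and 4.26, 4.23 and 3.42 CPM in ful-7, and XTH25 at 0.151, 0.207 and 0.228 CPM in Col-0 and 0.67, 0.788 and 0.5 CPM in ful-7. Both were higher in all 3 ful-7 libraries. Their log2 fold changes were 1.39 ± 0.23 (SE, adjusted p = 0.083) and 1.72 ± 0.38 (SE, adjusted p = 0.168) in edgeR, which are not calls, and DESeq2 gave adjusted p of 1.2e-05 and 0.034. XTH33 had 9 counts in ful-7 and 0 in Col-0, a 2.31-fold ratio by the same replacement, which does not cover error in the 9 counts. XTH33 was too low for the main test in meristems, and 0 of 2 alternatives that tested it called it. XTH32 lay at 52.9, 49 and 47.7 CPM in Col-0 and 48.7, 49 and 55.7 CPM in ful-7, with a log2 fold change of 0.03 ± 0.09 (SE). XTH6 lay at 93.1, 85.6 and 117 CPM in Col-0 and 76.1, 74.2 and 77.5 CPM in ful-7, with -0.38 ± 0.12 (SE), and XTH5 at 12, 14.8 and 15.2 CPM and 9.72, 8.89 and 11.7 CPM, with -0.47 ± 0.15 (SE). The groups of XTH6 and XTH5 did not overlap, but their edgeR adjusted p were 0.263 and 0.255. XTH19 had the widest estimate, -2.71 ± 1.26 (log2, SE), since Col-0 library 3 had 2.38 CPM and the other 5 meristem libraries had at most 0.219 CPM. The median log2 fold change was 0.09 over the 18 members and -0.02 over all genes.

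**Figure D4:**
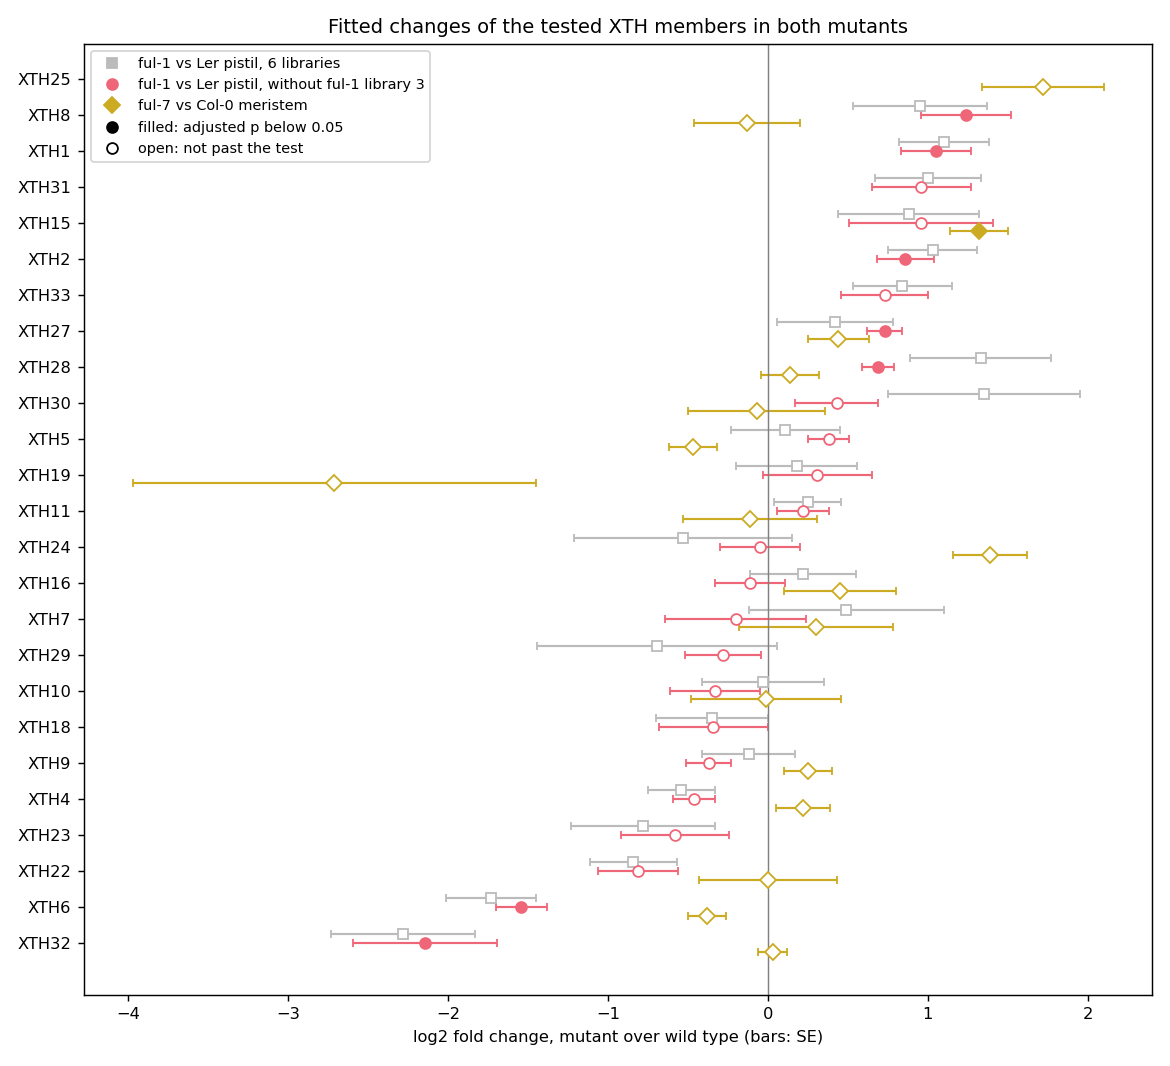
Fitted log2 fold changes of the tested members, mutant over wild type (x axis, bars are SE), for ful-1 pistils with all 6 libraries (grey squares), without ful-1 library 3 (red circles) and for ful-7 meristems (yellow diamonds). Filled symbols passed edgeR's test at an adjusted p of 0.05: 0 grey, 7 red and 1 yellow. XTH32 sits at -2.14 in pistils without library 3 and at 0.03 in meristems.

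Whether the mutants' effects differed between the tissues was tested as a contrast in a fit of all groups, where tissue, ecotype and allele change together. With 12 libraries, 1 of 25 tested members passed edgeR's test, XTH32, against 0.751% of all 25154 genes in either direction and 0.561% lower in pistils. Its effect in pistils was lower than that in meristems by a log2 value of -2.30 ± 0.45 (SE, adjusted p = 0.048). Leaving out any single library other than Ler library 3 or ful-1 libraries 2 and 3 ended the call, with adjusted p up to 0.141, while the value stayed between -2.68 and -2.00. Without ful-1 pistil library 3, 4 members passed, where 10.2% of 25577 genes did, 3.22% higher and 6.94% lower. XTH32 gave -2.19 ± 0.41 (SE, adjusted p = 0.008), XTH6 gave -1.17 ± 0.22 (SE, adjusted p = 0.0076) and XTH24 gave -1.46 ± 0.34 (SE, adjusted p = 0.023), all lower in pistils. XTH5 gave 0.84 ± 0.21 (SE, adjusted p = 0.030), higher in pistils. With library 3 the same contrast was -1.36 ± 0.34 for XTH6, -1.89 ± 0.80 for XTH24 and 0.59 ± 0.42 for XTH5 (SE), with edgeR adjusted p of 0.118, 0.380 and 0.583. For XTH5 and XTH24 neither tissue's own effect passed edgeR's test as run here, but XTH24 in meristems was called by DESeq2, by voom and by edgeR with no filter on low counts. XTH5 lay at 6.64, 5.43 and 6.14 CPM in Ler pistils and 8.23, 8.02 and, in library 3, 3.19 CPM in ful-1 pistils.

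The windows upstream of XTH5, XTH6 and XTH32 are printed because these members passed the contrast between tissues without ful-1 pistil library 3. With all 12 libraries XTH32 passed, and XTH5 and XTH6 did not. A further reason is that MADS-domain proteins such as FUL bind CArG boxes. They are the 300 bases before the RefSeq gene start (TAIR10.1), read 5′ to 3′ in the direction of the gene, with matches to any of 4 searched motifs in capitals.
XTH5 (chr5:4477091-4477390, reverse strand): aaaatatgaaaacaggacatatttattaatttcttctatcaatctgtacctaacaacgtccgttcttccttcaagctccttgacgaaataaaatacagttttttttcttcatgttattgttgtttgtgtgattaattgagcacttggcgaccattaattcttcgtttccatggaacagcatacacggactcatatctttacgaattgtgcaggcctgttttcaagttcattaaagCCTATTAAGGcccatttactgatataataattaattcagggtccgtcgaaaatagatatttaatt
XTH6 (chr5:26298428-26298727, forward strand): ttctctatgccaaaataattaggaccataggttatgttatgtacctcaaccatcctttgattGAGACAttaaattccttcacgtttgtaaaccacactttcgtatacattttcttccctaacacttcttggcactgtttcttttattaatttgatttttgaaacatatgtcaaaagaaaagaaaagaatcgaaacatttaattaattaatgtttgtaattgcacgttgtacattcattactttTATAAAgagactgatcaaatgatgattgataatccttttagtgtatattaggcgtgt
XTH32 (chr2:15474829-15475128, reverse strand): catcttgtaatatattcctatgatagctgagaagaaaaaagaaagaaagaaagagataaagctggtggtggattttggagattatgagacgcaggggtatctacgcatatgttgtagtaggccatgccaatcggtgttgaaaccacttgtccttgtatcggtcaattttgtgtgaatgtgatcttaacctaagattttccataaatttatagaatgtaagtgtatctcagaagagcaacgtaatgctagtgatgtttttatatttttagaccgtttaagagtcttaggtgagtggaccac
The CArG box, a core of A and T bases between CC and GG, was found in the XTH5 window, from base -65 to -56 counted back from the gene start. It occurred in 1 of the 32 members whose windows were searched (3.12%) and in 802 of 27443 windows of protein-coding genes (2.92%). The auxin response element TGTCTC occurred in XTH3 and XTH6, 6.25% of these members against 13% of all windows, and the copy in XTH6 reads GAGACA because it lies on the other strand. The G-box CACGTG occurred in 0 of them and in 7.09% of all windows. These 3 motifs were searched on both strands, and TATAAA, the TATA box, on the strand of the gene, where it occurred in 15 of them (46.9%) and 37% of all windows, XTH6 among them. The motifs did not overlap in the printed windows. A match describes letters in these windows only, and the XTH32 window, which holds no match, is not thereby shown to lack binding sites.

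Few other genes of xyloglucan metabolism passed the test in either mutant. Of all tested genes 0.186% passed in pistils with 6 libraries, 13.4% without library 3 and 0.292% in meristems. Counts of 0 or 1 in lists this small therefore say little about these genes as a set. Of 15 tested genes of xyloglucan synthesis, from the CSLC backbone synthases to the transferases that add side chains, 0 passed edgeR's test in pistils with or without library 3 (median log2 fold changes of -0.15 and -0.11) or in meristems (median -0.06). In those 3 fits 0, 1 and 0 of them had an unadjusted p under 0.05 by edgeR, and DESeq2 called 0 in each. Single estimates were not all small: with 6 pistil libraries AXY4, which acetylates xyloglucan, had a log2 fold change of 0.85 ± 0.36 and CSLC4 one of -0.79 ± 0.69 (SE), and without library 3 these were 0.47 ± 0.21 and -0.33 ± 0.25 (SE). Of 5 tested genes that trim xyloglucan, 1 passed, in pistils without library 3. That was XYL1, the alpha-xylosidase that removes xylose side groups, at 496, 567 and 479 CPM in Ler and 325, 391 and, in library 3, 145 CPM in ful-1. It fell by 0.56 ± 0.13 on the log2 scale (SE, adjusted p = 0.044, edgeR). Of 6 tested primary wall cellulose synthases, CESA9 rose by 0.67 ± 0.13 (log2, SE, adjusted p = 0.028, edgeR) in the same fit, from 5.09, 5.7 and 5.5 CPM in Ler to 9.59 and 8.12 CPM in ful-1, with 3.91 CPM in library 3. In the wild types, 6 of the 15 synthesis genes were higher and 3 lower in pistils, with a median of 0.10. These 9 of 15 are close to the 60.9% of all genes called in that comparison.

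The touch and handling genes were followed because XTH22 is itself induced by touch. Of 5 such genes tested, 0 passed edgeR's test in either mutant, and 2 had an unadjusted p under 0.05 in each. DESeq2 called 0 of them with all libraries of a tissue and 1 in pistils without ful-1 library 3. Their log2 fold changes in meristems were above 0 in 5 of 5, with a median of 0.68, against -0.02 over all genes. In ful-1 pistils they were above 0 in 4 of 5, with a median of 0.95 over 6 libraries and 0.31 without library 3, where that of XTH22 was -0.81. XTH22 lay in meristems at 10.6, 32.1 and 35.8 CPM in Col-0 and at 24.6, 35.6 and 18.7 CPM in ful-7, with overlap, and its log2 fold change was 0.00 ± 0.43 (SE).

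Members that lie side by side in the genome could differ widely in level. Within 10000 bases of each other lie XTH1 and XTH2, XTH23 and XTH14, and XTH24, XTH18 and XTH19 on chromosome 4, and XTH12, XTH13, XTH25 and XTH22 on chromosome 5. In Ler pistils XTH24 stood at 55.5 CPM per kb, first in its group of neighbours, while XTH18 and XTH19 had 2.92 ± 1 and 2.07 ± 0.767 CPM (SD, n = 3) on exons of 1263 and 1335 bases. XTH22 had 22.2 ± 6.39 CPM on 1590 bases, and XTH12, XTH13 and XTH25 had 0.119 ± 0.0221, 0.0107 ± 0.0186 and 0.412 ± 0.525 CPM (SD, n = 3) on 1146, 1110 and 1184 bases. XTH1 and XTH2 were alike, both at 0 in Col-0 meristems and both higher in ful-1 than in Ler pistils.

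The closest pair in sequence lies on different chromosomes and differed in level. XTH17 (AT1G65310) on chromosome 1 and XTH18 (AT4G30280) on chromosome 4 share 92.2% of their coding bases and the 73 bases just before the gene start, where no other pair of the members searched shared more than 4. That shared run (chr1:24256981-24257053, forward strand, and chr4:14827212-14827284, reverse strand, TAIR10.1) is printed because both genes carry it.
XTH17 and XTH18: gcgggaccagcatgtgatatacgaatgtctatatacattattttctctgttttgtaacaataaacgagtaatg
XTH18 had 3.12, 3.81 and 1.83 CPM in Ler pistils and 2.09, 2.66 and 1.96 CPM in ful-1 pistils. XTH17 had 0.0322, 0.0295 and 0.0282 CPM in Ler, 1 count in each library, and 0 in ful-1. Their longest blastn alignment was 1086 bases at 90.8% identity, and how the counting treated reads that fit both genes is not given in the sources used here.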

How the data were processed

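The authors deposited 1 table of raw counts per gene for 12 poly(A)-enriched libraries. Per the labels' protocols, RNA came from a CTAB and lithium chloride extraction, and a stranded TruSeq kit and paired reads of 150 bases were used. Per the submitters' processing notes, STAR 2.7.0b, featureCounts 1.6.0 and TAIR10 were used. Read trimming, the treatment of multi-mapped reads and the strand setting: not given in the sources used here. Of 44 gene pairs on opposite strands with at least 90% of both exonic lengths in common, 42 differed by at most 10% in counts, so the counts did not separate strands.

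CPM values were computed from the deposited counts with edgeR's TMM factors over 12 libraries, and CPM per kb with the exonic length of RefSeq's TAIR10.1, which matched 36632 of 36917 identifiers and all 33 members. Libraries are numbered by their order in the table within a group, as names only. Each comparison used edgeR's quasi-likelihood F test (edgeR 4.0.16, R 4.3.3) after filterByExpr and TMM, on the libraries compared, with Benjamini-Hochberg adjustment over all genes tested and a threshold of 0.05. "Adjusted p" means this unless DESeq2 (1.42.0) is named. SE was taken as log2 fold change over the root of F. P-values reflect only how these samples vary. Bounds against 3 counts over a group allow for counting error of the 0 only. They do not cover error in the higher group's counts or spread between libraries.

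All 33 members are given by their levels. Fold changes with SE and adjusted p are given for each member called in a mutant comparison or in the difference between tissues. This covers calls with all libraries or without ful-1 pistil library 3. Between the wild types some called members are given by ranges or by bounds only. Genes of the xyloglucan, cellulose synthase and touch lists are named where edgeR called them in a mutant comparison, up to 4 a direction. Calls between the wild types are given as counts, for the synthesis list only. Other members with values, such as XTH4, XTH17, XTH22, XTH25 and XTH31, were chosen after their values were seen. Members, lists and tests were chosen with earlier results of these data known. Alternatives were size factors of DESeq2, DESeq2, limma's voom with sample weights (limma 3.58.1), no filter, a minimum of 1 CPM in 3 libraries, all 12 libraries in 1 fit, each library left out, unscaled totals and, added after seeing the data, DESeq2 on 5 pistil libraries and the order per length without ful-1 library 3. The upstream window of 1 member is not reported here. The scripts were tested on simulated data. Identity used mafft 7.526 and blastn 2.17.0, tables and plots Python 3.11.15.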

Additional observations from a re-analysis of the deposited data

Results flagged for a closer look

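Whether the effect of the mutant allele differed between pistils and meristems was read from edgeR's test of the difference itself (a contrast of both effects in 1 fit). It did for 1 member with all 12 libraries and for 4 without ful-1 pistil library 3. With all 12 libraries this held for XTH32, with a log2 difference of -2.30, pistil minus meristem, where 0.751% of all tested genes passed. Without ful-1 pistil library 3 it held for XTH32 at -2.19, XTH24 at -1.46, XTH6 at -1.17 and XTH5 at 0.84, where 10.2% of all tested genes passed. XTH24, XTH6 and XTH5 did not pass with all 12 libraries. XTH32 and XTH6 are the members that fell in ful-1 pistils in that fit, and their meristem log2 fold changes were 0.03 and -0.38. For XTH24 the meristem value was 1.39 and the pistil value -0.05, and for XTH5 they were -0.47 and 0.38, of which none passed edgeR's test as run here; XTH24 in meristems was called in 3 of 12 alternatives. Tissue, ecotype, allele and dissection change together in this contrast and cannot be told apart.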

How the results depend on the processing

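No value of a called member changed sign under any alternative run: 91 values of 7 members for ful-1 pistils, 12 of 1 member for ful-7 meristems, 68 of 4 members for the difference and 227 of 19 members for the wild types. Counts of calls did depend on the processing. For ful-1 pistils the 44 genes and 0 members became 871 and 4 with DESeq2, 5458 and 11 with voom and sample weights, 647 and 2 in a fit of all 12 libraries, and 4327 and 10 with DESeq2 on 5 libraries; leaving out single libraries gave 0 to 3221 genes and 0 to 7 members, with 1 gene or none wherever ful-1 library 3 stayed in. FUL in pistils passed in those fits, at -3.84, -3.52, -3.82 and -3.51, and its values without single libraries ran from -4.12 to -3.50, of which the last, without ful-1 library 3, passed. The sample weight of library 3 was 0.04, against 1.03 to 3.29 for the others, and the coefficient of variation between replicates was 0.413 with it and 0.157 without it. For ful-7 meristems the 66 genes and 1 member became 765 and 3 with DESeq2, 847 and 3 with voom, 153 and 2 with no filter and 26 and 0 in a fit of all 12; leaving out single libraries gave 10 to 93 genes and 0 to 1 member. For the difference the 189 genes and 1 member became 1174 and 2 with DESeq2 and 5061 and 8 with voom, and 0 members passed with no filter; leaving out single libraries gave 57 to 2599 genes and 0 to 4 members. The cause was not tested. Without a library a group keeps 2. For the wild types the 14614 genes and 19 members were 12476 to 16356 genes and 18 to 20 members under the other settings, except a fit of all 12 libraries, with 10191 genes and 17 members; there the genes lower in pistils went from 6978 to 4420 and the members from 5 to 3. Summed levels moved by less than 1 SD in group means with unscaled totals, but ful-1 library 3 went from 1154 to 849 CPM, from the highest of its group to the lowest. No paired analysis was possible because the columns of the count table carry no replicate numbers. Depth limits the 7 members that lay at or under 0.309 CPM in every library, which had at most 5 counts in any library.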
